A study of Mus musculus with 6 samples.

Results

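The genes described here encode the proteins of the cytosolic ribosome. They were taken from the count table as the protein-coding genes whose GRCm38 symbol begins with Rpl or Rps and a digit, with Rplp or with Rpsa. Rps6k kinases, Rpl11 and genes that start in the last 35 Mb before position 150 Mb of chromosome 4, the stretch that holds the Padi genes, were left out, and at least 10 counts in at least 2 libraries were required. Of 55536 genes in the table, 393 carry such a name and 92 of these are annotated as protein-coding. Of these, 2 were left out by position or name, 7 of the remaining 90 genes had too few counts, and 83 genes were kept. Of the 83 genes, 50 encode proteins of the large subunit or their near relatives, 32 those of the small subunit, and Rps19bp1 encodes a binding partner of a ribosomal protein and meets the rule by name only. Just inside the threshold was Rpl9-ps6, with 11 and 9 counts in WT, 5 and 14 in P2KO, and 12 and 7 in DKO. Just outside was Rpl3l, with 3 and 4, 7 and 9, and 10 and 6 counts.

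Ribosomal proteins surround the ribosomal RNA of a small subunit, which decodes the mRNA, and of a large subunit, which forms the peptide bond. Their genes are among the most highly transcribed of any cell, their mRNAs are short, and many of these mRNAs begin with a run of pyrimidines through which the mTOR pathway controls their translation. Mammalian genomes carry many processed pseudogene copies of these genes. Male germ cells express retrotransposed or duplicated paralogs of several X-linked ribosomal protein genes, whose X-chromosomal parents are silenced during meiosis.

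RNA of whole testis from adult mice aged 4 months was sequenced after poly(A) selection, with 2 animals and so 2 libraries per genotype. The background strain of every genotype was FVB/NJ. P2KO mice were a homozygous inbred line carrying a gene trap of Padi2, in which the coding part of exon 1 is replaced by a LacZ and Neo cassette. DKO mice carried the same Padi2 allele together with a deletion of 4 nucleotides in exon 1 of Padi4, made by CRISPR/Cas9 in P2KO zygotes and kept as 1 founder line, so the knockout lines share the Padi2 allele and each line is a single inbred line.

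The libraries held 21939393 to 27306679 counts, and 20744 genes were tested. Padi4 had 20 and 43 counts in WT, 11 and 10 in P2KO, and 4 in each DKO library. Padi2 counts were not lower in the knockouts and do not check those labels. All 6 libraries held transcripts of the expected testis cells. The summed normalized counts of 10 elongating spermatid markers were 464160 to 540583, those of 10 round spermatid markers 56962 to 61610, those of 10 spermatocyte markers 37656 to 40222, those of 11 Sertoli cell markers 27208 to 31642, and those of 10 spermatogonial markers 3331 to 3659 per library.

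The ribosomal protein genes were expressed over a wide range in WT testis. Levels are compared between genes as the normalized count per kb of the principal mRNA, where a normalized count is the count scaled to a common library size. The highest level was that of Rplp0, which encodes the core protein of the ribosomal stalk, at 12606 ± 285 per kb (SD, n = 2). Rpl41, which encodes the smallest ribosomal protein of 25 codons, stood at 12553 ± 151 per kb, within the spread of Rplp0. Rpl13 followed at 11863 ± 4.51, and Rps14 at 10313 ± 114 and Rpl26 at 9869 ± 418 did not differ beyond their spread. The 5 lowest levels were those of Rpl36al at 105 ± 15.5, Rps10 at 62.9 ± 5.73, Rps27rt at 57.8 ± 9.3, Rpl13a at 26.9 ± 3.04 and Rpl9-ps6 at 14.5 ± 4.02 per kb. Rps10 and Rps27rt did not differ beyond their spread.

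**Figure D1:**
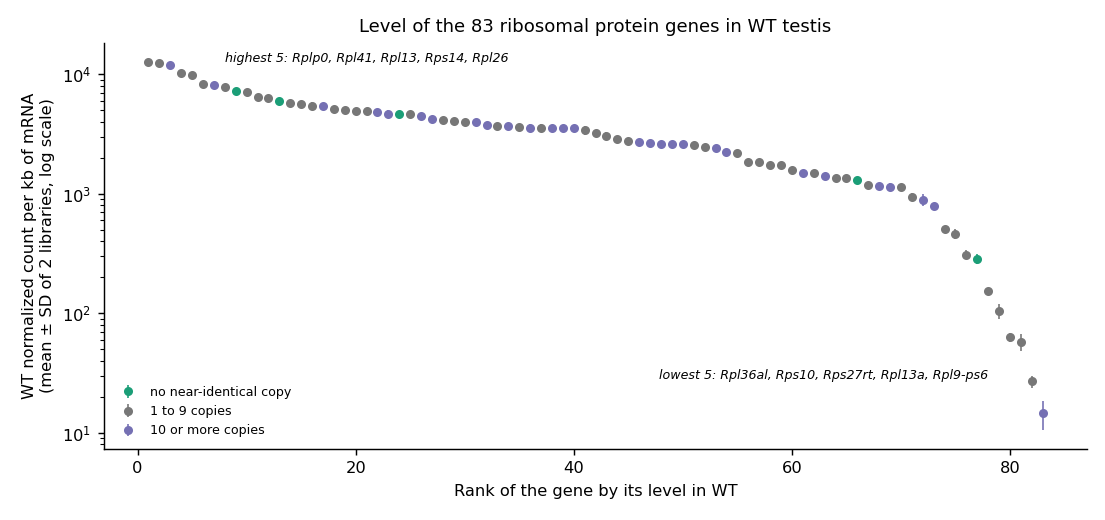
WT level of each of the 83 genes (normalized count per kb of mRNA, mean ± SD of 2 libraries, log axis) against its rank, coloured by the number of near-identical copies elsewhere in the genome. Most genes lie in a gently falling series, and the lowest 5 lie between 14.5 and 105 per kb.

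These levels depend on how the reads were assigned. Of the 83 genes, 78 have at least 1 near-identical copy, that is, another gene whose transcript matches it at 95% or more of the bases over a stretch of 150 nucleotides or longer, and 28 have 10 or more. Rpl21 has the most, 67. Reads that match a gene and its copy equally well are left out of such counts, so the level of a gene with copies can be too low. Rps10, Rpl13a and Rpl36al, with their low levels, lie in loci where an annotated readthrough gene (RPS10-NUDT3, Gm45713 and Gm49383) shares exons on the same strand, and reads on shared exons are ambiguous. Genes on the same strand cover 20.6% of the exon length of Rps10, 35.4% of that of Rpl13a and 24.5% of that of Rpl36al, and the part of this overlap in the low levels was not tested. Rpl24, overlapped in the same way by Gm28037, had 0 to 1 counts per library and was not kept. The readthrough genes themselves had 0 to 1 counts. Levels per kb also use the annotated mRNA, which for Rps20 is 3706 nucleotides long.

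In DKO testis, the genes lay slightly lower than in WT as a group, and 5 genes passed the test. In the quasi-likelihood test of edgeR, with p-values adjusted over all tested genes by Benjamini-Hochberg, Rps29, Rps20, Rps21, Rpl27a and Rpl22l1 fell in DKO against WT and 0 genes of the group rose. Over all tested genes, 1.16% were called lower and 2.06% higher. At an unadjusted p under 0.05, 32 of the 83 genes were lower and 0 higher, beside 6.25% and 7.89% of all tested genes. The 32 became 19 without WT replicate 2, 18 without DKO replicate 2 and 13 with a correction for gene length. Both DKO libraries lay below both WT libraries for 55 of the 83 genes and above them for 0, beside 21.6% of all tested genes in each direction. Whether fewer cells that express these genes or less of these mRNAs per cell were present cannot be told apart in whole testis.

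Rps29, which encodes a short zinc-binding protein of the small subunit, had normalized counts of 1461 and 1327 in WT, 1341 and 1631 in P2KO, and 1112 and 1028 in DKO. Both DKO libraries lay below all 4 others, and the P2KO and WT libraries overlapped. Rps29 fell by 23.1% in DKO against WT (log2 fold change -0.38, standard error 0.0822, adjusted p = 0.00408).

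Rps21, the gene of another small protein of the small subunit, had normalized counts of 630 and 626 in WT, 625 and 735 in P2KO, and 511 and 489 in DKO. The DKO libraries again lay below all 4 others. Rps21 fell by 20.4% in DKO against WT (log2 fold change -0.33, standard error 0.0942, adjusted p = 0.0447).

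Rpl22l1, a paralog of Rpl22 in the large subunit, had normalized counts of 492 and 545 in WT, 503 and 578 in P2KO, and 361 and 418 in DKO. The DKO libraries did not overlap with those of the other genotypes. Rpl22l1 fell by 25.2% in DKO against WT, the largest fitted fall of the 5 called genes (log2 fold change -0.42, standard error 0.105, adjusted p = 0.0153).

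Rpl27a, a protein of the large subunit, had 3001 and 3060 normalized counts in WT, 2899 and 2922 in P2KO, and 2564 and 2575 in DKO. Here the P2KO libraries lay between those of WT and DKO. Rpl27a fell by 15.2% in DKO against WT (log2 fold change -0.24, standard error 0.0615, adjusted p = 0.0201).

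Rps20, a protein of the small subunit, had 4772 and 5211 normalized counts in WT, 4631 and 4783 in P2KO, and 4276 and 4318 in DKO. Its gene fell by 13.9% in DKO against WT (log2 fold change -0.22, standard error 0.0602, adjusted p = 0.0352). Rps20 lies on chromosome 4, from 3831334 to 3835665 on the minus strand (GRCm38), far from the Padi genes. Rps29, Rpl27a and Rps20 also stand in the study's own list of changed genes, which was drawn from the same libraries and is no independent evidence.

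**Figure D2:**
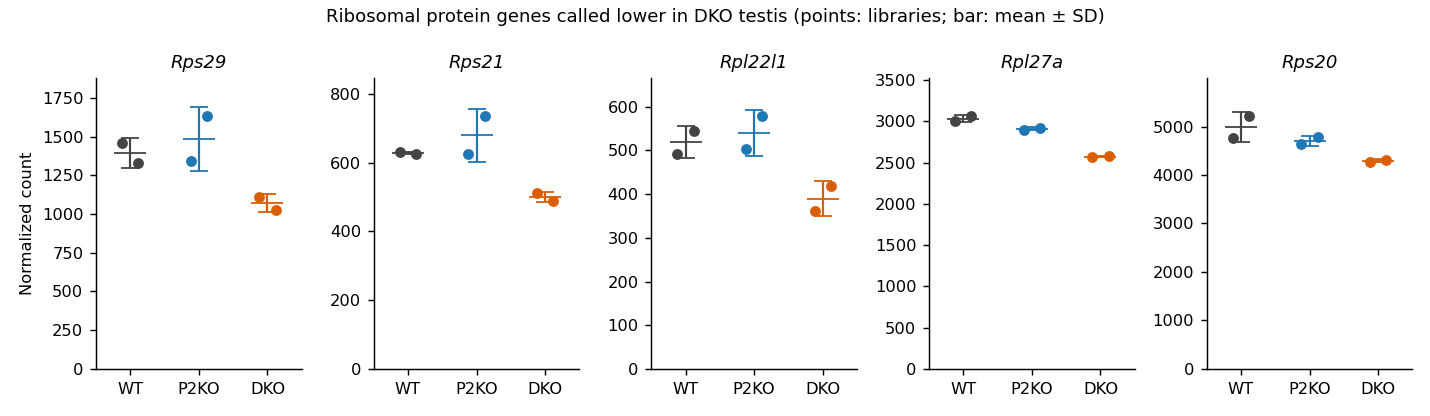
Normalized count in each library (points) with the mean and SD (bars) for the 5 genes called lower in DKO against WT, each on an axis that starts at 0. The DKO libraries lie below the WT libraries for every gene shown, from 1028 and 1112 against 1327 and 1461 for Rps29 to 4276 and 4318 against 4772 and 5211 for Rps20.

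The number of calls depended on single libraries. It was 8 without WT replicate 1, and 1 without WT replicate 2, without DKO replicate 1 or without DKO replicate 2. Of the 5 calls, only that of Rps29 remained without WT replicate 2 and without DKO replicate 1, and only that of Rpl22l1 without DKO replicate 2. Without WT replicate 1 the call of Rps21 was lost, and without either P2KO replicate that of Rps20. The call of Rps20 was also lost with edgeR on the WT and DKO libraries alone, where the other 4 remained. DESeq2 called 3 genes of the group on all 6 libraries (Rps29, Rpl27a and Rps20) and 1 (Rps29) on the WT and DKO libraries alone, where 18 were lower at an unadjusted p under 0.05.

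The start regions of the called genes are shown for the pyrimidine run that many ribosomal protein mRNAs carry. RefSeq promoter entries on GRCm38.p6 were found for 63 of the 83 genes, among them 3 of the 5 called genes. None was found for Rps29 and Rps20. Each line gives the 15 bases before and the 15 bases from the annotated start, and capitals mark a run of a C followed by at least 4 further C or T that begins in the window, read on the transcribed strand only. Rpl7a is shown as a gene with a long run and little change, Rps6 as the substrate of the S6 kinases, and Rps19 as a gene without a run in the window of its annotated start.
Rpl22l1, chr3:28805493-28805522, plus strand: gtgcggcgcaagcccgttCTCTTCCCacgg
Rpl27a, chr7:109519180-109519209, plus strand: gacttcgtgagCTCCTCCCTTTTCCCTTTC
Rps21, chr2:180257364-180257393, plus strand: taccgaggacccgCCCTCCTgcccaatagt
Rpl7a, chr2:26910792-26910821, plus strand: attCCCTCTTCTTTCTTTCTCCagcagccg
Rps6, chr4:86857353-86857382, minus strand: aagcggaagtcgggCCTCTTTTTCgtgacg
Rps19, chr7:24884577-24884606, plus strand: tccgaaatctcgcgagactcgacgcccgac
The run reaches 20 bases within and beyond the window in Rpl27a, 8 in Rpl22l1, 7 in Rps21 and 19 in Rpl7a. Such a run was present in 42 of the 63 genes (66.7%) and in 40.2% of all 27025 genes of the promoter table. The median log2 fold change of DKO against WT was -0.126 over the 42 genes with a run and -0.136 over the 21 genes without. Annotated starts can differ from the starts used in testis, and the run is a description of the letters alone.

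Across the group, the shift in DKO was small and went one way. The median log2 fold change of DKO against WT was -0.126 over the 83 genes and -0.005 over all tested genes, and 80 of the 83 fitted values lay below 0 beside 51.2% of all tested genes. The exceptions were Rpl7, Rpl10l and Rpl7l1, with log2 fold changes of 0.03, 0.01 and 0.00. The median of the 83 became -0.089 without DKO replicate 2 and -0.075 with the length correction. By subunit, the median was -0.121 over the 50 large subunit genes and -0.141 over the 32 small subunit genes. The lowest fitted values, -0.73 for Rps27rt and -0.71 for Rps10, belonged to genes with few counts and did not pass the test. Among the 79 genes with a mean of 50 or more counts, the values ran from -0.42 to 0.03.

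**Figure D3:**
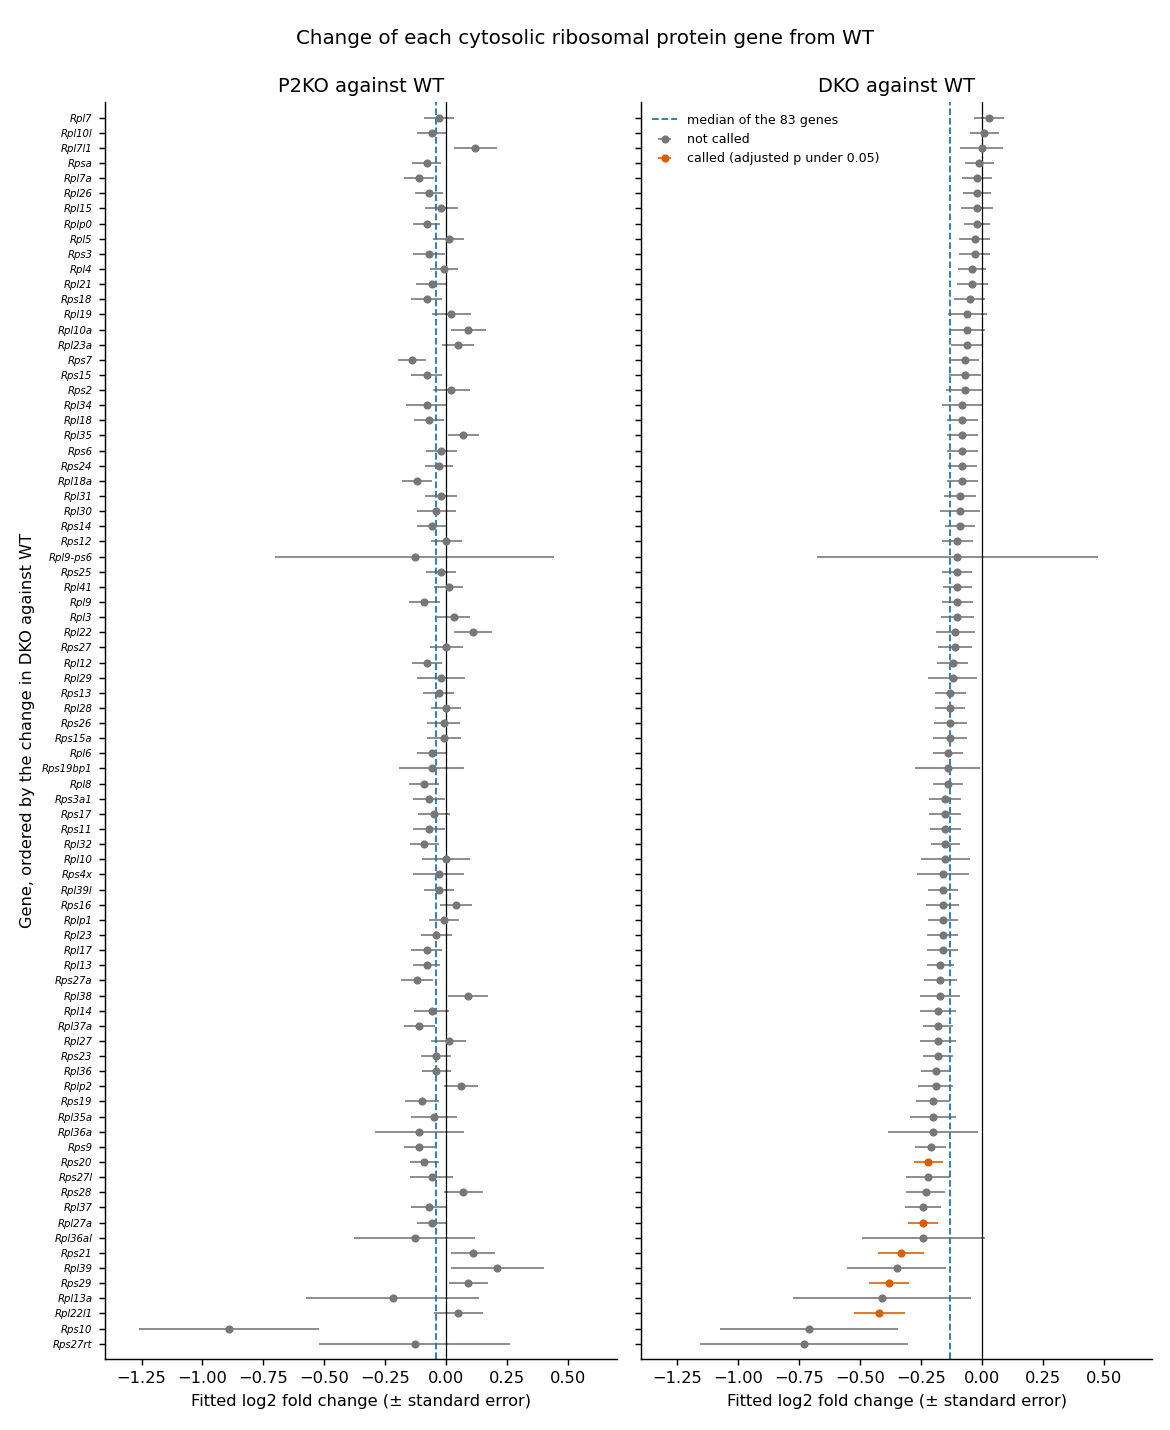
Fitted log2 fold change with its standard error for the genes of the group, 1 of which is not drawn, in P2KO against WT (left) and DKO against WT (right), in the order of the DKO values, with called genes in orange and the median of the 83 genes as a dashed line. The P2KO values scatter about a median of -0.041, whereas nearly all DKO values lie below 0, about a median of -0.126.

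As a share of all counts on genes, the 83 genes took 0.904% and 0.9495% in WT, 0.9009% and 0.8948% in P2KO, and 0.8607% and 0.8345% in DKO. The DKO libraries had the lowest shares, and the P2KO libraries lay below those of WT by less than the WT libraries differed from each other. The mean share was 0.927% ± 0.0321 in WT, 0.898% ± 0.00429 in P2KO and 0.848% ± 0.0185 in DKO (SD, n = 2 each).

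Genes with short coding sequences had the lower fitted changes. Over the 83 genes, Spearman's rho between the coding length and the log2 fold change of DKO against WT was 0.55, and over 14629 tested protein-coding genes off chromosome 4 it was 0.39, so a trend of the same sign was present in this comparison at large. In P2KO against WT the values were -0.21 over the group and 0.20 over the protein-coding genes, of opposite sign. These correlations are across genes of the same libraries, and genes are not independent replicates. By mRNA length, the 27 shortest genes of the group (271 to 560 nucleotides) had a median log2 fold change of -0.169, the 29 in the middle -0.126 and the 27 longest (878 to 3706 nucleotides) -0.082. Rps29 (168 coding nucleotides), Rps21 (249) and Rpl22l1 (366) lie among the 27 shortest mRNAs, and the other called genes, Rpl27a (444 coding nucleotides) and Rps20 (357), among the 27 longest. Other genes with short coding sequences, which were not called, had log2 fold changes of -0.35 for Rpl39, -0.23 for Rps28, -0.17 for Rpl38 and -0.10 for Rpl41.

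The trend with coding length was also present between replicates of P2KO and, more weakly, of DKO. Over the 79 genes with a mean of 50 or more counts, the log2 ratio of P2KO replicate 1 to replicate 2 had a Spearman's rho of 0.49 with coding length, that of the DKO replicates 0.35 and that of the WT replicates 0.12. With mRNA length the values were 0.41, 0.14 and -0.03. Each library was then corrected for a trend with gene length, taken as the merged length of all annotated exons. This is not the coding or mRNA length used above. With this correction, the median of the 83 genes in DKO against WT was -0.075 and 70 fitted values lay below 0. Of the 5 calls, 4 remained, all but that of Rps21. With the replicate number as a block in addition, 3 remained (Rpl22l1, Rpl27a and Rps20), without Rps29.

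**Figure D4:**
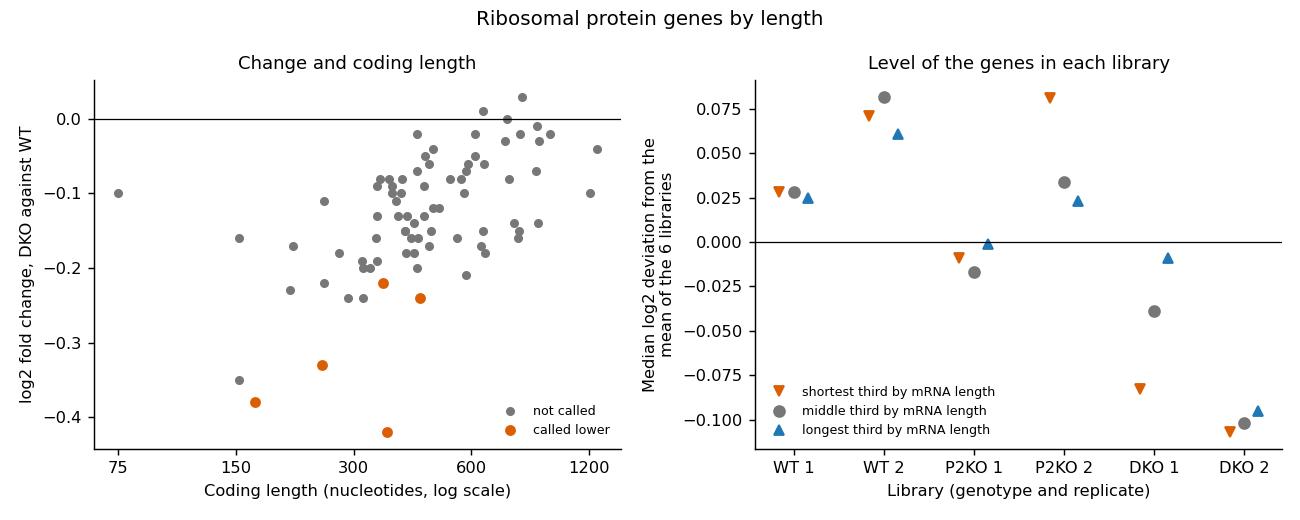
Left, log2 fold change of DKO against WT plotted against coding length (nucleotides, log axis) for the 79 genes with a mean of 50 or more counts, with called genes in orange. Right, median log2 deviation of each library from the mean of the 6 libraries for the shortest, middle and longest genes of the group by mRNA length, where both DKO libraries lie below 0 in every class and P2KO replicate 2 is highest among the shortest.

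In P2KO testis, 0 genes of the group were called higher or lower than in WT by edgeR or by DESeq2 on all 6 libraries, beside 0.198% of all tested genes called higher and 0.14% lower. At an unadjusted p under 0.05, 2 genes were lower (Rps10 and Rps7) and 0 higher, beside 4.02% and 4.55% of all tested genes. The 2 became 7 without WT replicate 1, 0 without WT replicate 2 and 4 with a correction for GC content, and 4 genes were higher without P2KO replicate 1. Both P2KO libraries lay below both WT libraries for 25 genes and above them for 6, beside 18.8% and 18.7% of all tested genes. The median log2 fold change was -0.041, beside 0.004 over all tested genes, and 62 of the 83 values lay below 0, beside 49% of all tested genes. The median was -0.021 without WT replicate 2 and -0.017 without P2KO replicate 1, and -0.07 without WT replicate 1 and -0.061 without P2KO replicate 2. Rps29, Rps21 and Rpl22l1 had log2 fold changes of 0.09, 0.11 and 0.05 in P2KO against WT.

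Between the knockout genotypes, which differ by the Padi4 deletion in the labels, Rps29, Rps21 and Rpl22l1 were lower in DKO than in P2KO and 0 genes were higher, beside 0.598% of all tested genes called lower and 0.607% called higher. Rps29 fell by 27.8% (log2 fold change -0.47, standard error 0.0817, adjusted p = 6.01e-04), Rps21 by 26.3% (log2 fold change -0.44, standard error 0.0932, adjusted p = 0.00679) and Rpl22l1 by 27.9% (log2 fold change -0.47, standard error 0.104, adjusted p = 0.0103) by edgeR's test. Rps28 came next in order of p, though not of fold change, at -0.30 with an adjusted p of 0.0516. At an unadjusted p under 0.05, 19 genes were lower and 0 higher, beside 5.68% and 6.17% of all tested genes. The 19 became 4 without P2KO replicate 2, 11 without DKO replicate 2 and 12 with the length correction, with which 3 genes were higher. Both DKO libraries lay below both P2KO libraries for 43 genes and above them for 4 (Rpl26, Rpl7, Rps7 and Rpsa), beside 21.6% and 21.1% of all tested genes.

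The median log2 fold change of DKO against P2KO was -0.095 over the 83 genes and -0.003 over all tested genes, and 68 of the 83 values lay below 0, beside 50.8%. The median became -0.05 without DKO replicate 2, -0.056 without P2KO replicate 2 and -0.06 with the length correction. The comparisons share libraries, so the calls of Rps29, Rps21 and Rpl22l1 against WT and against P2KO rest on the same DKO libraries. The number of calls was 0 without P2KO replicate 2, 1 without DKO replicate 1 (Rps29) or DKO replicate 2 (Rpl22l1), 5 without WT replicate 1 and 7 without WT replicate 2. DESeq2 called 2 genes on all 6 libraries (Rps29 and Rps21) and 0 on the P2KO and DKO libraries alone, where 15 were lower at an unadjusted p under 0.05 but 24 of the 83 genes, these 3 among them, received no adjusted p. The P2KO replicates stood apart for these genes, with 1341 and 1631 normalized counts for Rps29 and 625 and 735 for Rps21.

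The stalk genes encode the lateral arm of the large subunit to which translation factors bind. Rplp0 had 17393 and 16845 normalized counts in WT, 16378 and 15899 in P2KO, and 17555 and 16264 in DKO, with overlapping WT and DKO libraries and a log2 fold change of -0.02. Rplp1 and Rplp2, the genes of the acidic proteins of the stalk, had 3522 and 3602 and 1520 and 1582 normalized counts in WT and 3248 and 3146 and 1423 and 1304 in DKO. Their DKO libraries lay below those of WT, with log2 fold changes of -0.16 (standard error 0.0612, adjusted p = 0.199 by edgeR) and -0.19 (standard error 0.0719, adjusted p = 0.192 by edgeR). Neither passed the test. Rpl13 and Rps14, among the highest genes, had log2 fold changes of -0.17 and -0.09, and Rpl26 had -0.02.

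Rpl10l and Rpl39l exceeded their X-linked parents in testis. Rpl10l, an autosomal retrogene of Rpl10 needed for male meiosis, had 5052 and 4965 normalized counts in WT, 5014 and 4601 in P2KO, and 5153 and 4917 in DKO. Its X-linked parent Rpl10, whose protein joins the large subunit late in its maturation, had 609 and 662, 584 and 696, and 627 and 515. The ratio of Rpl10l to Rpl10 per kb was 6.17 ± 0.436 in WT, 5.94 ± 1.09 in P2KO and 6.93 ± 0.734 in DKO (SD, n = 2 each), and the genotypes overlapped.

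Rpl39l, an autosomal copy of Rpl39 that is used in male germ cells, showed the same order with a larger gap. It had 3319 and 3246 normalized counts in WT, 3143 and 3276 in P2KO, and 2908 and 2975 in DKO, beside 93.5 and 94.4, 95.8 and 123, and 63.2 and 84.8 for Rpl39. The ratio per kb was 38.9 ± 0.882 in WT, 33 ± 4.94 in P2KO and 45.1 ± 8.6 in DKO (SD, n = 2 each). Rpl39 has 8 near-identical copies and Rpl39l has 0, and Rpl10 has 15 and Rpl10l has 1, so the parents can lose more reads than the paralogs and the ratios can be too high.

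The X-linked genes did not pass the test in DKO. Rps4x, a protein of the small subunit, had 422 and 483 normalized counts in WT and 380 and 433 in DKO, and Rpl36a had 159 and 141 in WT and 144 and 114 in DKO, with overlapping libraries in both. The log2 fold changes of DKO against WT were -0.16 for Rps4x, -0.20 for Rpl36a, -0.15 for Rpl10 and -0.35 for Rpl39. The autosomal relative Rps4l, annotated as a transcribed pseudogene and not one of the 83 genes, had 2674 and 2486 normalized counts in WT and 2543 and 2258 in DKO (log2 fold change -0.10, standard error 0.068, adjusted p = 0.552 by edgeR). Rpl36al, the relative of Rpl36a at a readthrough locus, had 49.6 and 61.1 in WT and 52.7 and 41.3 in DKO, and stood at 0.343 ± 0.0793 of Rpl36a per kb in WT (SD, n = 2).

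**Figure D5:**
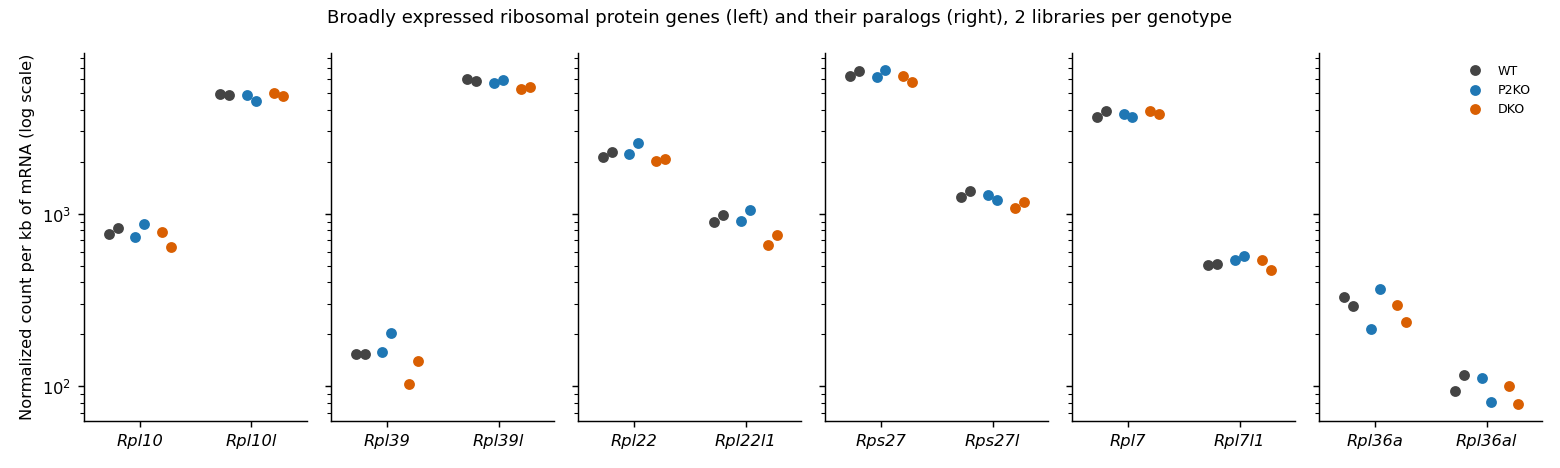
Normalized count per kb of mRNA (log axis) of 6 ribosomal protein genes and their paralogs in each library, by genotype. Rpl10l and Rpl39l lie above their parents in every library, whereas the paralogs of the other 4 pairs lie below theirs, and the DKO points of Rpl22l1 lie below those of WT and P2KO.

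Pairs of autosomal genes had the reverse order. Rpl22l1 stood at 0.426 ± 0.0115 of the level of Rpl22 per kb in WT, 0.41 ± 0.00105 in P2KO and 0.345 ± 0.0288 in DKO (SD, n = 2 each). Rpl22 itself, on chromosome 4 from 152325742 to 152334071, had 1012 and 1078 normalized counts in WT, 1050 and 1211 in P2KO, and 954 and 981 in DKO, with a log2 fold change of DKO against WT of -0.11 (standard error 0.08, adjusted p = 0.586 by edgeR). Rps27l stood at 0.201 of Rps27 in WT and 0.186 ± 0.0208 in DKO, and Rpl7l1, a relative of Rpl7, at 0.134 ± 0.00679 of Rpl7 in WT and 0.131 ± 0.00923 in DKO. Rpl3 had 1906 and 1895 normalized counts in WT and 1833 and 1707 in DKO, and its muscle paralog Rpl3l stayed at 3 to 10 counts per library and was not tested.

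Further genes were examined for their roles. Rps6, whose protein is the classical substrate of the S6 kinases, had 3187 and 3081 normalized counts in WT and 3124 and 2815 in DKO, and Rpsa, the gene of the small subunit protein that is also known as the laminin receptor, had 4151 and 4276 in WT and 4338 and 4038 in DKO. Both overlapped between the genotypes. Rps27a, which is made as a fusion with ubiquitin, had 2152 and 2402 in WT, 2098 and 2095 in P2KO, and 2039 and 2005 in DKO, with a log2 fold change of DKO against WT of -0.17 (standard error 0.0669, adjusted p = 0.192 by edgeR).

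Ribosomal protein genes that the name rule does not take in were read in the same fit. Fau, whose product is cleaved to the small subunit protein eS30, had 3120 and 3170 normalized counts in WT, 2978 and 3088 in P2KO, and 2733 and 2638 in DKO, and fell by 14.6% in DKO against WT (log2 fold change -0.23, standard error 0.0618, adjusted p = 0.0294 by edgeR). This call was lost with the length correction (alone or with the replicate block), the GC correction and DESeq2 on the compared genotypes, and without WT replicate 2, P2KO replicate 2 or either DKO replicate. Rack1, a scaffold protein bound to the small subunit, had 1991 and 2031 normalized counts in WT and 2093 and 1885 in DKO, which overlapped.

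Copies in other parts of the genome were examined next. Of the 83 genes, 12 have a near-identical copy in the left-out stretch of chromosome 4. Their median log2 fold change of DKO against WT was -0.123, beside -0.126 over the 83 genes, and 0 of them were called, beside 1.16% of all tested genes called lower in DKO against WT, 0.598% in DKO against P2KO and 0.14% in P2KO against WT. The 5 genes without any near-identical copy, among them Rpl8 and Rps27l, had a median of -0.137. Rpl8 had 6100 and 6311 normalized counts in WT and 6021 and 5264 in DKO, and Rps27l had 627 and 672 in WT and 535 and 582 in DKO, and both had DKO libraries below those of WT.

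Genes of ribosome assembly and of translation were read from lists. Of 53 ribosome biogenesis genes, 2 were called higher in DKO against WT and 2 lower, beside 2.06% and 1.16% of all tested genes, with a median log2 fold change of 0.013. Gar1, a core protein of the H/ACA particles that guide pseudouridylation, had 455 and 318 normalized counts in WT, 347 and 463 in P2KO, and 211 and 217 in DKO, and fell by 44.3% in DKO against WT (log2 fold change -0.84, standard error 0.143, adjusted p = 1.80e-04 by edgeR). Fbl, the methyltransferase of the C/D particles, fell by 25.8% (log2 fold change -0.43, adjusted p = 0.0334 by edgeR), from 618 and 462 in WT to 403 and 393 in DKO. Its log2 fold change was -0.22 without WT replicate 1 and -0.63 without WT replicate 2. Mdn1 and Mrto4, both factors of large subunit maturation, rose, with log2 fold changes of 0.40 (standard error 0.0678, adjusted p = 1.51e-04) and 1.54 (standard error 0.075, adjusted p = 2.72e-17).

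Mrto4 rose by the same measure in P2KO against WT (log2 fold change 1.55), from 696 and 639 normalized counts in WT to 2028 and 1884 in P2KO and 1954 and 1926 in DKO. It was the 1 biogenesis gene called in that comparison, beside 0.198% of all tested genes called higher and 0.14% lower. Mrto4 lies on chromosome 4 from 139347435 to 139352576, within the stretch of the chromosome that carries the Padi genes, and Mdn1 lies on the same chromosome from 32657119 to 32775217. In DKO against P2KO, Gar1 was called lower (log2 fold change -0.91) and Mdn1 higher (0.30), beside 0.598% and 0.607% of all tested genes. The calls of Gar1 and Mrto4 held without each library in turn. That of Mdn1 against WT was lost without DKO replicate 2 and with the length correction, which took its log2 fold change from 0.40 to 0.20, and against P2KO also without either P2KO replicate, and that of Fbl was lost without WT replicate 1 or either DKO replicate, with the replicate block (alone or with the length correction) and with DESeq2 on all 6 libraries or on the compared genotypes.

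Of 35 translation factors, 1 was called lower in DKO against WT and against P2KO and 0 higher, beside 1.16% and 0.598% of all tested genes called lower. This was Eif5b, which joins the subunits at the start codon. It had 7873 and 7408 normalized counts in WT, 7462 and 7965 in P2KO, and 6794 and 6234 in DKO (log2 fold change -0.23, standard error 0.0597, adjusted p = 0.0213 for the comparison with WT). This call was lost without WT replicate 1 or DKO replicate 2 and with DESeq2 on the compared genotypes, and that against P2KO (-0.24) without any 1 of the P2KO and DKO libraries and with the replicate block. The list had a median of -0.046 in DKO against WT. Of 18 tested genes of the mTORC1 pathway and its targets, 2 were called higher in DKO against WT and 0 lower, beside the same 2.06% and 1.16%. Mtor, the kinase itself, had 6916 and 5543 normalized counts in WT, 9186 and 10420 in P2KO, and 10707 and 11076 in DKO, with log2 fold changes of 0.65 in P2KO and 0.81 in DKO (adjusted p = 1.06e-07 and 2.89e-10 by edgeR). Rragc, a small GTPase that recruits mTORC1 to the lysosome, had a log2 fold change of 0.29 in DKO (adjusted p = 0.0263 by edgeR), and its call was lost without any 1 of the WT and DKO libraries and with DESeq2 on all 6 libraries or on the compared genotypes. That of Mtor held without each library, and in P2KO was lost with DESeq2 on the compared genotypes. Both start within the left-out stretch of chromosome 4 that holds the Padi genes, Mtor from 148448611 to 148557683 and Rragc from 123917446 to 123936997.

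Genes of the mitochondrial ribosome, a separate particle with its own proteins, were taken as a comparison. Of 77 tested Mrpl and Mrps genes, 0 were called in any comparison, beside 1.16% of all tested genes called lower in DKO against WT, 0.598% in DKO against P2KO and 0.14% in P2KO against WT. Their median log2 fold change of DKO against WT was -0.091, and 66 of the 77 values lay below 0, beside -0.005 and 51.2% over all tested genes. The difference between the cytosolic and the mitochondrial group was not tested.

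Cell type markers were set beside these results. Of 8 Leydig cell markers, 4 were called higher in DKO against WT (Cyp17a1, Hsd3b6, Star and Cyp11a1) and 1 lower (Hsd3b1), beside 2.06% and 1.16% of all tested genes. The summed normalized counts of the 8 were 18365 and 18672 in WT, 18732 and 20878 in P2KO, and 19946 and 24102 in DKO. Of 10 elongating spermatid markers, Prm1 and Tnp1 were called lower in DKO against WT, beside 1.16% of all tested genes, and Tnp2 in P2KO against WT, beside 0.14%. The sums of the 10 were 527412 and 540583 in WT, 464160 and 502679 in P2KO, and 496695 and 510146 in DKO, lowest in P2KO replicate 1. Their median log2 fold change was -0.11 in P2KO and -0.05 in DKO against WT. Of 10 spermatocyte markers, Sycp2 was called higher in DKO against WT, beside 2.06% of all tested genes, with sums of 37656 and 38574 in WT and 39566 and 40222 in DKO. The sums of 10 spermatogonial markers were 3576 and 3613 in WT and 3331 and 3416 in DKO, with 0 called, beside the same 2.06% higher and 1.16% lower over all tested genes.

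Of the round spermatid, Sertoli, peritubular myoid, endothelial and macrophage markers, 0 were likewise called in DKO against WT, beside these shares. In DKO against P2KO, the round spermatid marker Spaca1 was called lower and the Leydig cell marker Hsd3b6 higher, beside 0.598% and 0.607% of all tested genes. The median log2 fold changes of the lists in that comparison ran from -0.15 for Sertoli cells to 0.19 for endothelial cells, with -0.12 for round spermatids. The sums over the 6 libraries were 1326 to 1742 for 5 peritubular myoid markers, 640 to 751 for 5 endothelial markers, 1356 to 1631 for 7 macrophage markers, 531 to 1054 for 5 red blood cell markers, of which Hba-a2 was at 0 in all libraries, and 248 to 279 for 5 fat cell markers. The part of these differences in the changes of the ribosomal protein genes was not tested.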

How the data were processed

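The authors sequenced poly(A) RNA of whole testis, 2 libraries for each of WT, P2KO and DKO. The authors deposited raw counts per gene, which STAR counted on GRCm38 after trimming with Trim Galore, without normalization. The strand setting of the deposited counts and the tool versions are not given in the sources used here. Reads shared between copies or overlapping genes are lost in such counting. All 55536 gene identifiers were matched to GENCODE mouse release M21 (Ensembl release 96).

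The analysis used edgeR 4.0.16 and limma 3.58.1 under R 4.3.3. After filterByExpr (minimum count 10) and TMM scaling (factors 0.984 to 1.02), genotypes were compared by glmQLFit and glmQLFTest in 1 fit of all 6 libraries with a term for genotype, which left 3 residual degrees of freedom. Benjamini-Hochberg adjustment covered all 20744 tested genes, and genes below an adjusted p of 0.05 are termed called. The common biological coefficient of variation was 0.0508. Standard errors are the absolute log2 fold change divided by the square root of F. Intervals of single counts cover counting error only and are not given. On simulated data for DKO against WT with 20440 genes, 192 of 200 changed genes were called, with 8 false calls. The simulated log2 fold changes were of 1 or 2 in either direction, larger than those of the called genes of the group. Recovery of smaller changes was not simulated. Replicates differed by more than counting noise (chi-square per degree of freedom 3.25 to 4.62), so no library was counted as a second deposit of another. The animals are separate, and with 2 of each genotype each gene's spread was shrunk towards that of other genes.

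Near-identical copies were found with BLAST 2.17.0. Genes named are the called genes, genes chosen by role (stalk, X-linked genes, paralog pairs, Rpsa, Rps6, Rps27a, Fau, Rack1), the 5 highest and 5 lowest levels in WT, genes of the group in the study's list (Rps20, Rpl27a, Rps29) and called genes of the other lists. Rps28, Rpl38, Rps7, Rpl8, Rps19, Rps19bp1, Rpl7a and Rpl21 were named after their values had been seen, and some genes are not reported here. The genes of the group and all lists were chosen with earlier results of these data known. Alternatives were RLE and upper-quartile scaling, TMM factors without the group, no filter on low counts, a mean of at least 50 counts, a replicate block, DESeq2 1.42.0, edgeR on the compared genotypes alone, corrections for length (alone and with the block) and GC content (lowess, span 0.3), genes off chromosome 4, genes without copies, and leaving out each library.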

Additional observations from a re-analysis of the deposited data

Results flagged for a closer look

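The changes of the knockout genotypes from WT differed for 3 genes, by the test of DKO against P2KO, which is the test of that difference. Rpl22l1 had a log2 fold change of -0.47 in DKO against P2KO, with a value of 0.05 for P2KO against WT and -0.42 for DKO against WT. Rps21 had -0.44, with 0.11 and -0.33, and Rps29 had -0.47, with 0.09 and -0.38. Each of these genes was lower in both DKO libraries than in both P2KO libraries. Each of the 3 calls was lost without P2KO replicate 2.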

How the results depend on the processing

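No alternative called a gene of the group higher in any comparison or lower in P2KO against WT. In DKO against WT, the 5 lower calls became 9 with upper-quartile scaling, 3 with DESeq2 on all libraries, 1 with DESeq2 on the compared genotypes and 3 with the length correction and replicate block, and 0 of the 5 genes without a near-identical copy were called, of which 3 had an unadjusted p under 0.05. The median of -0.126 became -0.075 with the length correction and -0.074 with the block in addition. In DKO against P2KO, the 3 lower calls became 0 with DESeq2 on the compared genotypes alone (which gave 24 of the 83 genes no adjusted p) and 7 with edgeR on the same libraries, and 0 among the genes without a copy, where 1 had an unadjusted p under 0.05. Leaving out each library gave 1 to 8 calls and medians of -0.166 to -0.089 in DKO against WT, and 0 to 7 calls and medians of -0.12 to -0.05 in DKO against P2KO. The medians of P2KO against WT stayed between -0.07 and -0.017. Of the named genes' values under single alternatives, 53 lost a call and 6 gained it in DKO against WT, 18 lost it and 19 gained it in DKO against P2KO, and 1 lost it in P2KO against WT, with no change of sign among called values. The cause of these shifts was not tested, apart from the fewer libraries or genes that some alternatives use.

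Replicate numbers were not taken to pair the samples. The correlations of deviations over all tested genes were -0.0572 for WT and P2KO, 0.0574 for WT and DKO and -0.0502 for P2KO and DKO, and over the group's own genes -0.403, 0.503 and -0.0179. With the replicate block alone, 4 genes were called lower in DKO against WT, without Rps21, 3 in DKO against P2KO and 0 in P2KO against WT. Values near the floor of 3 counts, and levels of genes with many copies, are limited by depth and read assignment.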
